A study of Mus musculus with 8 samples.

Results

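The genes described here encode 10 proteins that build, coat and break down the triglyceride droplet of the fat cell: Pnpla2, Lipe, Plin1, Plin2, Plin4, Cidec, Dgat1, Dgat2, Agpat2 and Gpd1. They were taken by symbol from the 32285 genes listed in single-cell RNA sequencing tables of mouse inguinal white fat, and each symbol matched 1 row. Triglyceride is made from glycerol 3-phosphate, which Gpd1 supplies, by stepwise addition of fatty acids, in which Agpat2 makes phosphatidic acid and Dgat1 and Dgat2 add the last acyl chain. Perilipins (Plin1, Plin2, Plin4) and Cidec coat and enlarge the droplet, and lipolysis releases the fatty acids again through adipose triglyceride lipase (Pnpla2) and hormone-sensitive lipase (Lipe). Mature adipocytes carry this machinery at high levels, whereas Plin2 is found on the small droplets of many cell types.

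The stromal vascular fraction (SVF), the pelleted cells of collagenase-digested fat without the floating adipocytes, was captured from C57BL/6 mice fed ad libitum (Ad-Lib, replicates 1, 3, 5 and 7) or given their food in a pair of meals each night (twice-a-night, TAN, replicates 2, 4, 6 and 8). Each of the 8 replicates is 1 droplet library of 3′ transcript tags with unique molecular identifiers (UMIs, 1 per captured molecule). Per the labels the mice were 8 weeks old, whereas the paper describes this fraction as coming from males aged 7 months, after 5 months of either feeding on regular chow. These ages do not agree, and no result here uses them. The libraries held 25320800 to 37140950 UMIs, and 36370 of 44427 barcodes passed the study's limits (3717 to 5654 per library). Pairs of libraries shared 5 to 16 barcodes. The labels do not tie a library to an animal, so p-values measure the spread between libraries.

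Cells were gated by marker UMIs that include none of the 10 genes. Cells with Pdgfra (fibroblasts and adipocyte progenitors), Pecam1 (endothelium) or C1qa (macrophages) had at least 2 UMIs of that gene and 0 of the other two, which gave 6495, 6548 and 4034 cells. Droplets with at least 5 Adipoq and 5 Car3 UMIs that together made up 1% or more of their UMIs were called Adipoq/Car3-rich, and there were 94 of them. B-gated cells (Cd79a, 1737 cells) and T-gated cells (Cd3e, 1197 cells) served as background, since neither cell stores fat. UMIs were summed per library and gate, so the library was the replicate, and levels are UMIs of a gene per 1000000 UMIs of the gate (CPM). The sums were tested with edgeR's quasi-likelihood test, and a gene counted as changed when it moved by 1.5-fold or more with a p under 0.05 after Benjamini-Hochberg adjustment.

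The gates held their own markers, with Dcn at 13250 CPM in Pdgfra-gated, Cdh5 at 1121 CPM in Pecam1-gated and C1qb at 2981 CPM in C1qa-gated cells. Pecam1-gated cells also held the mural marker Rgs5 at 599.6 CPM, the B cell marker Cd79a at 108 CPM and the T cell marker Trbc2 at 63.2 CPM, and this gate excludes only Pdgfra and C1qa. The Adipoq/Car3-rich droplets carried Cfd at 26670 CPM and Retn at 3307 CPM, both secreted by adipocytes, but also Gsn at 3603 CPM and the endothelial markers Pecam1, Cdh5, Kdr, Cldn5, Egfl7 and Flt1 at 85.5 to 226 CPM. Cd3e and Cd79a were at 0 there. Ucp1, the uncoupling protein of brown and beige fat, had 0 of 173089 UMIs in these droplets, which allows a level of up to 17.3 CPM. The droplets were shallow, with a median of 1127.5 to 2138 UMIs per library against 4317 to 4898 in Pecam1-gated and 9262.5 to 11691.5 in Pdgfra-gated cells, so they are named here by their rule and not as intact adipocytes. Of the kept barcodes of a library, 0.259% ± 0.117 (Ad-Lib, SD, n = 4) and 0.282% ± 0.199 (TAN, SD, n = 4) were such droplets, a difference that did not pass an exact two-sided permutation test (p = 0.886). The marker levels, the depths and this share take in all 8 libraries. The library TAN 6 held only 2 of the droplets and is left out of the levels, ratios and tests of the 10 genes in them, which therefore compare 4 Ad-Lib with 3 TAN libraries. This minimum of 5 droplets per library was set after the droplet counts were seen.

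Adipocyte RNA was also present in the other gates. Adipoq plus Car3 stood at 901 CPM in Pecam1-gated, 140.0 CPM in C1qa-gated and 39.3 CPM in Pdgfra-gated cells. Between 55.3% and 75.1% of Pecam1-gated cells of a library held at least 1 such UMI, against 7.65% to 16.2% of Pdgfra-gated cells. Levels of the 10 genes are therefore also given below per 100 UMIs of Adipoq plus Car3 of the same gate and library, although the Adipoq/Car3-rich droplets were chosen for a high level of these very UMIs.

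Of the lipases, Pnpla2 (chr7:141455198-141460743, plus strand; GRCm38, GENCODE M21) starts lipolysis by removing the first fatty acid. Pnpla2 averaged 1038 ± 222 CPM in Adipoq/Car3-rich droplets (SD over 7 libraries), 159 ± 19.9 CPM in Pecam1-gated, 32.7 ± 5.69 CPM in C1qa-gated and 13.0 ± 1.28 CPM in Pdgfra-gated cells (SD, 8 libraries each). The first 3 of these ranges did not overlap with one another, whereas C1qa-gated cells overlapped with T-gated (26.4 ± 14.3 CPM) and B-gated cells (23.3 ± 9.28 CPM). Lipe (chr7:25379527-25398710, minus strand), which hydrolyses diacylglycerol, had the same order among these 4 gates, with 753 ± 215 CPM, 88.6 ± 14.1 CPM, 21.1 ± 3.24 CPM and 7.97 ± 1.57 CPM. Pecam1-gated cells held 17.6 ± 2.75 Pnpla2 UMIs per 100 Adipoq plus Car3 UMIs in Ad-Lib libraries, against 3.80 ± 1.22 in Adipoq/Car3-rich droplets, and the ratio was above that of the droplets in 7 of 7 libraries. The same held for Lipe, at 10.5 ± 2.23 against 3.38 ± 0.467 in Ad-Lib libraries.

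Among the droplet coat genes, Plin1 (chr7:79720218-79732903, minus strand), the coat protein that gates access of the lipases in adipocytes, averaged 674 ± 196 CPM in Adipoq/Car3-rich droplets, 17.7 ± 4.91 CPM in Pecam1-gated and 3.12 ± 1.15 CPM in C1qa-gated cells. In Pdgfra-gated cells it was at 0.790 ± 0.447 CPM, with 57 UMIs in all and 0 in TAN 6, where a count of 0 allows up to 0.808 CPM. Per 100 Adipoq plus Car3 UMIs, however, Plin1 lay at 2.37 ± 1.21, 2.15 ± 0.234, 2.35 ± 0.641 and 2.24 ± 0.581 in Ad-Lib libraries in these same 4 gates and the ranges over libraries overlapped. In TAN libraries the Plin1 ratio was 3.18 ± 0.395 in the droplets, above the ranges of the other 3 gates (means 1.57 to 2.15). Cidec (chr6:113424634-113435760, minus strand), which fuses small droplets into large ones, averaged 1379.6 ± 386 CPM, 55.7 ± 11.8 CPM, 11.3 ± 4.57 CPM and 2.76 ± 1.21 CPM in the same gates. Its ratio stayed between 5.42 and 7.14 per 100 in the Ad-Lib means of the 4 gates.

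Plin2 (chr4:86648386-86670060, minus strand) was also well detected outside the Adipoq/Car3-rich droplets. It stood at 686 ± 364 CPM in Adipoq/Car3-rich droplets, 222 ± 34.2 CPM in Pecam1-gated, 130.3 ± 12.4 CPM in Pdgfra-gated and 103 ± 17.2 CPM in C1qa-gated cells, whereas T-gated and B-gated cells held 20.1 ± 13.3 CPM and 7.75 ± 5.44 CPM. The ranges of the latter pair lay below those of the 4 other gates. In Pdgfra-gated cells, 57.1% ± 2.88 of cells held a Plin2 UMI, and 11.2% ± 0.854 after each cell was thinned to 1000 UMIs. The thinned share was 20.2% ± 2.75 in Pecam1-gated and 9.03% ± 1.06 in C1qa-gated cells, against 0.689% ± 0.617 in B-gated and 1.49% ± 0.867 in T-gated cells. Plin4 (chr17:56100591-56109803, minus strand), a coat protein of nascent droplets, reached 1244 ± 603 CPM in Adipoq/Car3-rich droplets. It stood at 36.03 ± 9.47 CPM in Pecam1-gated and 32.4 ± 5.10 CPM in Pdgfra-gated cells, 2 overlapping ranges, although Pdgfra-gated cells held the least adipocyte RNA. The Plin4 ratio was 83.5 ± 13.5 per 100 Adipoq plus Car3 UMIs in Pdgfra-gated cells of Ad-Lib libraries, against 4.76 ± 0.749 in Pecam1-gated cells and 6.30 ± 1.04 in the Adipoq/Car3-rich droplets.

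Among the synthesis genes, Dgat1 (chr15:76502015-76511953, minus strand) was sparse in all gates. It averaged 123 ± 69.8 CPM in Adipoq/Car3-rich droplets on 22 UMIs in all, and 24.2 ± 15.3 CPM, 16.9 ± 1.85 CPM, 15.0 ± 1.42 CPM, 10.9 ± 2.52 CPM and 7.67 ± 6.61 CPM in T-gated, Pecam1-gated, Pdgfra-gated, C1qa-gated and B-gated cells, and each of these ranges overlapped with the next. Dgat2 (chr7:99153658-99182719, minus strand), the second enzyme of that last step, averaged 958 ± 360.4 CPM in the droplets and 26.2 ± 8.45 CPM, 8.10 ± 4.94 CPM and 5.62 ± 1.24 CPM in Pecam1-gated, C1qa-gated and Pdgfra-gated cells. Gpd1 (chr15:99717515-99725005, plus strand) averaged 668 ± 205 CPM, 25.3 ± 12.1 CPM, 6.75 ± 3.35 CPM and 1.67 ± 0.963 CPM in the same order. Agpat2 (chr2:26593057-26604417, minus strand) averaged 847 ± 629 CPM in the droplets and 36.4 ± 20.5 CPM, 23.6 ± 6.29 CPM and 17.1 ± 2.29 CPM in the other 3 gates, with the widest spread between libraries of the 10 genes in the droplets. The ranges of Agpat2 over libraries overlapped between neighbours from Pecam1-gated cells down to B-gated cells (13.8 ± 5.94 CPM). The plot of levels by gate shows the 10 genes in all 6 gates.

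**Figure D1:**
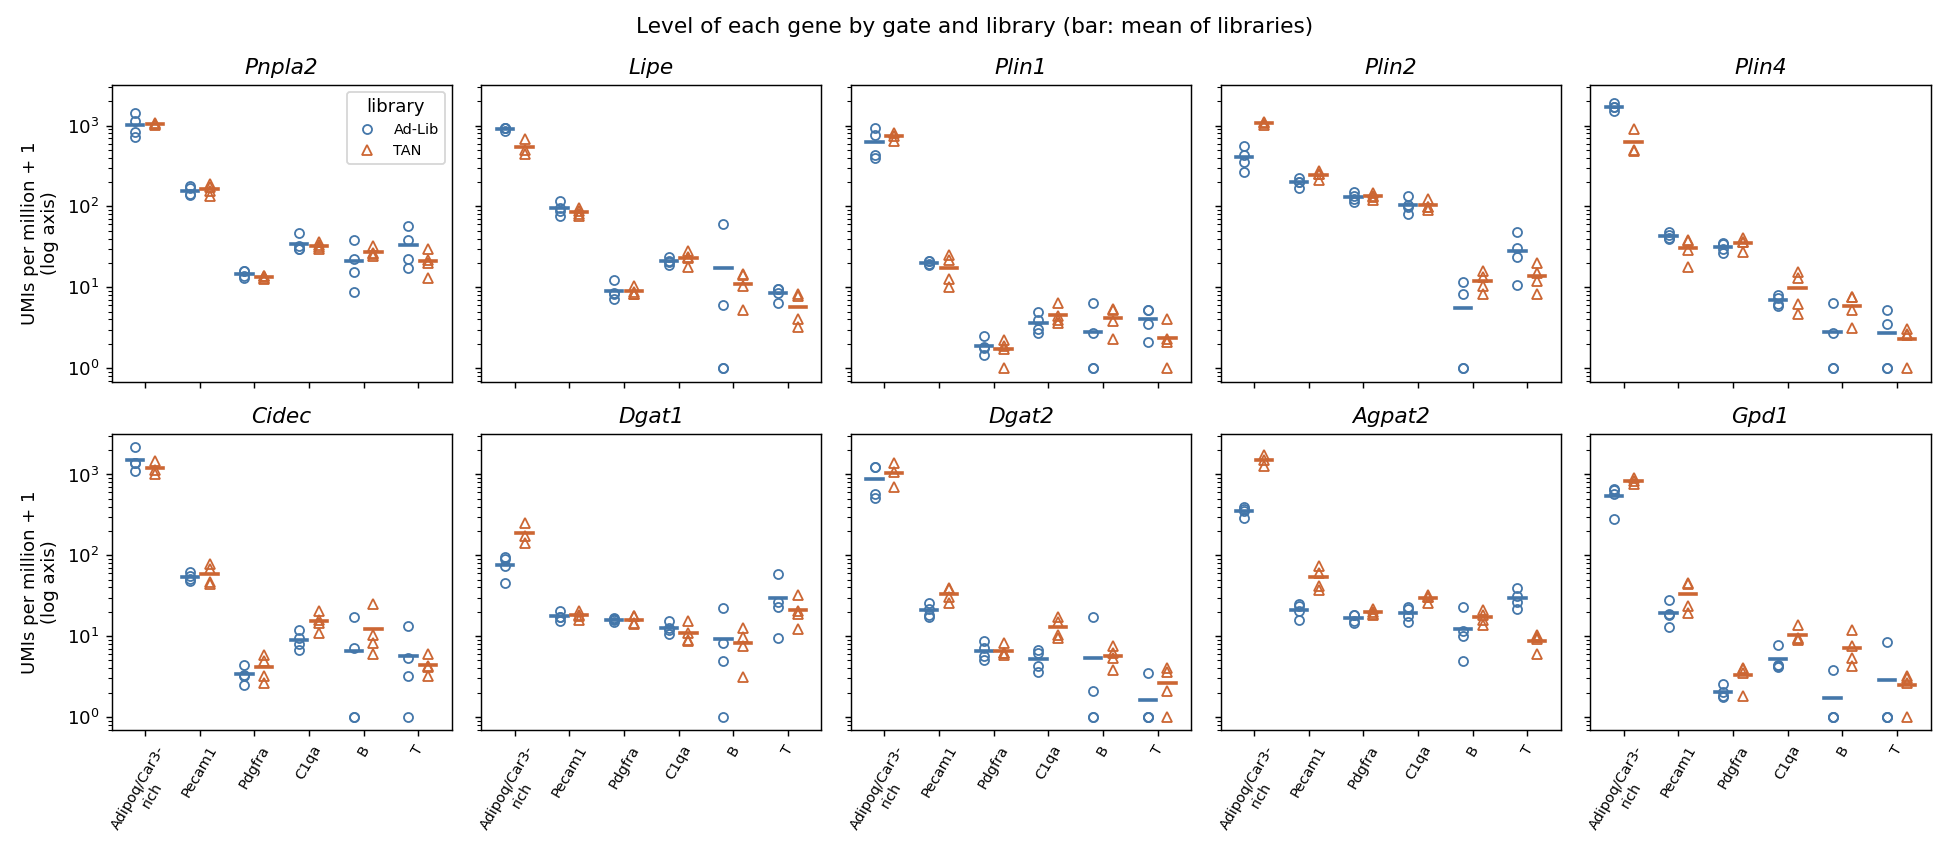
Level of each of the 10 genes as CPM plus 1 (log axis) in 6 gates. Each circle (Ad-Lib) or triangle (TAN) is 1 library and each bar the mean of a group; TAN 6 is left out of the Adipoq/Car3-rich droplets (2 droplets). All 10 genes have their highest mean in these droplets. There the Agpat2, Plin2, Gpd1 and Dgat1 triangles lie above all circles and the Plin4 and Lipe triangles below. Of these, Gpd1 and Lipe were not called and Dgat1 was not tested.

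In the Adipoq/Car3-rich droplets, Agpat2 and Plin2 were called higher and Plin4 lower in TAN libraries. Of the 10 genes, 9 passed the count filter and 3 were called. The filter asks for about 441 CPM in 3 libraries, which Plin4 reached in both groups, whereas Agpat2 reached it in 0 of 4 and Plin2 in 1 of 4 Ad-Lib libraries and both in 3 of 3 TAN libraries, so these genes entered the test through the group where they were high. Plin1 passed through the TAN group as well, with 2 of 4 Ad-Lib libraries above it. With no filter, Agpat2 was still called and Plin2 and Plin4 were not. That fit leaned toward TAN, with a median log2 change of 0.337 over 9499 genes, against 0.00428 with the filter. Its 12 calls were all higher, so it does not settle what the filter did. Over the 307 genes tested in these droplets, 2.61% were called higher and 5.86% lower (8 and 18 genes), and the order of the counts turned without Ad-Lib 7 or TAN 2 (4 higher and 1 lower each) and without TAN 4 (7 and 2). Agpat2 stood at 289, 377, 397 and 353 CPM in the Ad-Lib libraries (replicates 1, 3, 5 and 7) and at 1498, 1283 and 1732 CPM in the TAN libraries (replicates 2, 4 and 8). The lowest TAN library was thus above 3 times the highest Ad-Lib library, and the groups did not overlap. The counts behind these levels were small, with 4, 4, 9 and 8 against 69, 55 and 21 UMIs, and the 2 droplets of TAN 6 held 3 UMIs (1330.4 CPM). The difference passed the test (log2 change 1.88 ± 0.29 SE, adjusted p = 0.00112) and was called under each of the 18 alternatives tried, where the log2 change ran from 1.61 to 2.32. Among these, the alternative with no minimum change is the main fit under a looser rule. The limit of 15000 UMIs gave the main result again (26 of 307 genes called), so neither could lose the call. After thinning to 1000 UMIs, 33.3% ± 11.6 of droplets held an Agpat2 UMI in Ad-Lib and 77.8% ± 16.5 in TAN libraries, with 11 of 43 Ad-Lib and 4 of 49 TAN droplets too shallow to enter.

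Plin2 was at 433, 565, 353 and 265 CPM in Ad-Lib and at 1108, 1003 and 1072 CPM in TAN libraries. All 3 TAN libraries lay above all 4 Ad-Lib libraries (log2 change 1.34 ± 0.31 SE, adjusted p = 0.0121). That call was lost with DESeq2 (adjusted p = 0.0947), with no filter on low counts (adjusted p = 0.0755), without Ad-Lib 7 (adjusted p = 0.0879) and without TAN 2 (adjusted p = 0.0868). Plin4 moved the other way, from 1876, 1507, 1721 and 1721 CPM in Ad-Lib to 478, 909.9 and 495 CPM in TAN libraries. The groups did not overlap (log2 change -1.54 ± 0.28 SE, adjusted p = 0.0017), though the call was lost with no filter on low counts (adjusted p = 0.664) and without TAN 2 (adjusted p = 0.0728). The droplets of TAN 6, left out of the test, held 0 Plin2 UMIs, which allows up to 1330.4 CPM. Their Plin4 ratio was 5.36 per 100 Adipoq plus Car3 UMIs, within the Ad-Lib range (4.97 to 7.5). The 3 TAN libraries tested lay at 1.88 to 4.01.

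The other members were not called in these droplets. Lipe ranged over 866 to 942 CPM in Ad-Lib and 443 to 673 CPM in TAN libraries, without overlap (log2 change -0.86 ± 0.28 SE, adjusted p = 0.0696), and passed the test only at a mitochondrial limit of 20% (log2 change -1.01, adjusted p = 0.0204). Gpd1 ranged over 283 to 662 against 769.9 to 912 CPM (log2 change 0.42 ± 0.29 SE, adjusted p = 0.488). Pnpla2, Plin1, Dgat2 and Cidec overlapped between the groups, with log2 changes of -0.10, 0.07, 0.01 and -0.46 and adjusted p of 0.408 to 0.997. Dgat1 fell below the count filter, with 1, 1, 1 and 2 UMIs in Ad-Lib and 8, 6 and 3 in TAN libraries. Adipoq (log2 change -0.40 ± 0.23 SE, adjusted p = 0.395) and Car3 (log2 change -0.40 ± 0.17 SE, adjusted p = 0.218), whose UMIs chose the droplets, are given as a description only. The median mitochondrial share of the droplets was 2.35% to 5.73% in the Ad-Lib and 5.39% to 6.38% in the 3 TAN libraries, and its part in these differences was not tested.

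The sequence upstream of the start was at hand in RefSeq (GRCm38.p6) for 7 of the 10 genes, and it is shown for the 3 that were called in the droplets, Agpat2 and Plin2 on the higher side and Plin4 on the lower. Each line gives the 250 bases before the start, 5′ to 3′ on the gene's strand, and capitals mark the nuclear receptor core AGGTCA, the box CCAAT or the GC box GGGCGG on either strand.
Agpat2 promoter, chr2:26604418-26604667, minus strand: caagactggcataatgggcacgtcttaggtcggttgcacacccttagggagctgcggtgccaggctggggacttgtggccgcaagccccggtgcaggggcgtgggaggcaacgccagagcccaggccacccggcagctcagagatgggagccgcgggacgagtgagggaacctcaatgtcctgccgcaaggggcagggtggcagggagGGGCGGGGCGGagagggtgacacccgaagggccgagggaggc
Plin2 promoter, chr4:86670060-86670309, minus strand: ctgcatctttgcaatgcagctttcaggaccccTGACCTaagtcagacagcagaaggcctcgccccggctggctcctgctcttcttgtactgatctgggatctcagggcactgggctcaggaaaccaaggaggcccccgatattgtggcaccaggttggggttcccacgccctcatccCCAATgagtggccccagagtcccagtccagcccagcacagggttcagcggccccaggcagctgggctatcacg
Plin4 promoter, chr17:56109783-56110032, minus strand: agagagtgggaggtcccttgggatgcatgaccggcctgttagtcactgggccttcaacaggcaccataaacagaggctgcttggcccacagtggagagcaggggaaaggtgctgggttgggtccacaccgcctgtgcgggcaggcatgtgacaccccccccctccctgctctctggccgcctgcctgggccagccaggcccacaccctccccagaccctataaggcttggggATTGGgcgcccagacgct

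The Agpat2 stretch held 2 GC boxes that share 1 base, 42 to 32 bases before the start. The Plin2 stretch held a nuclear receptor core on the opposite strand, 218 to 213 bases before the start, and a CCAAT box at 73 to 69. The Plin4 stretch held a CCAAT box on the opposite strand at 18 to 14. The RefSeq start used for this stretch lies inside the GENCODE span of Plin4 given above, which ends at chr17:56109803, and so does this box. In windows of the same length before 32851 annotated starts, the core was found in 14%, the CCAAT box in 33.8% and the GC box in 32.7%, so none of these matches is rare. An E-box (CACGTG, in 6.02% of the windows), a C/EBP motif (TTGCNNAA, in 9.56%) and a sterol-response core (TCACNCCA, in 3.67%), searched on both strands, did not match in any of the 3. These matches are a description of the letters in the windows.

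In Pecam1-gated cells, Agpat2 was the single member called, and it was higher with TAN feeding. Over the 11507 genes tested in this gate, 0.252% were called higher and 0.660% lower (29 and 76 genes), and without Ad-Lib 3 the counts became 228 higher and 150 lower. Agpat2 was at 14.7, 19.7, 22.7 and 24.3 CPM in the Ad-Lib and at 72.8, 59.2, 41.1 and 36.6 CPM in the TAN libraries, on 72, 90, 91 and 80 and 465, 289, 164 and 137 UMIs. All 4 TAN libraries lay above all 4 Ad-Lib libraries (log2 change 1.44 ± 0.24 SE, adjusted p = 0.0203). The call was lost with the gate set at 1 Pecam1 UMI (adjusted p = 0.119), without Ad-Lib 1 (adjusted p = 0.0715), without Ad-Lib 7 (adjusted p = 0.0752) and without TAN 4 (adjusted p = 0.0627), while the log2 change stayed between 1.23 and 1.59 in 17 alternatives. An exon of Agpat2 overlaps the endothelial gene Egfl7 on the opposite strand. Egfl7 did not pass the test in this gate (log2 change -0.04 ± 0.10 SE, adjusted p = 0.882), and whether any of its reads were counted for Agpat2 was not tested. Exons of Lipe, Plin4 and Gpd1 overlap opposite-strand genes too (4732471J01Rik, Hdgfl2 and Gm16537).

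Adipoq plus Car3 stood at 822, 992, 918 and 847 CPM in Ad-Lib and at 1153, 1209, 642 and 622 CPM in TAN libraries, where replicates 2 and 4 were above and replicates 6 and 8 below all Ad-Lib libraries. Per 100 Adipoq plus Car3 UMIs, Agpat2 went from 2.28 ± 0.486 in Ad-Lib to 5.87 ± 0.687 in TAN libraries (SD, n = 4 each), and in the Adipoq/Car3-rich droplets from 1.31 ± 0.305 (n = 4) to 6.47 ± 0.772 (n = 3). The ratio of the gate was above that of the droplets in 4 of the 7 libraries. In the 4524 cells with at most 0.1% adipocyte UMIs, Agpat2 stood at 11.1 ± 2.00 CPM in the Ad-Lib group and 27.2 ± 6.38 CPM in the TAN group (log2 change 1.35, adjusted p = 0.0201), with Car3 still at 238 ± 18.4 and 237 ± 42.5 CPM. How much of the Agpat2 signal comes from adipocyte RNA in these droplets was not tested. The median mitochondrial share was 1.72% to 2.22% in Ad-Lib and 2.62% to 3.36% in TAN libraries, and its part was not tested either.

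The remaining 9 members were not called in Pecam1-gated cells. Dgat2 ranged over 16.4 to 24.9 CPM in Ad-Lib and 24.8 to 38.9 CPM in TAN libraries, with an overlap of 1 library (log2 change 0.78 ± 0.18 SE, adjusted p = 0.0643), and passed the test in 4 of 17 alternatives, among them DESeq2 (log2 change 0.78, adjusted p = 0.00894). Gpd1 ranged over 12.1 to 26.7 against 18.3 to 43.9 CPM (log2 change 0.86 ± 0.32 SE, adjusted p = 0.218). Plin2 stood at 198 ± 23.1 against 246 ± 24.7 CPM (log2 change 0.36 ± 0.11 SE, adjusted p = 0.152). Plin4 was at 46.8, 38.4, 43.6 and 40.0 CPM in Ad-Lib and lower, at 27.9, 37.9, 17.0 and 36.6 CPM, in each TAN library (log2 change -0.46 ± 0.21 SE, adjusted p = 0.293). The lipases Pnpla2 (log2 change 0.10 ± 0.12 SE, adjusted p = 0.72) and Lipe (log2 change -0.11 ± 0.13 SE, adjusted p = 0.704) were close to 0 on the log2 scale, and so were Plin1 (-0.15), Cidec (0.20) and Dgat1 (0.10).

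**Figure D2:**
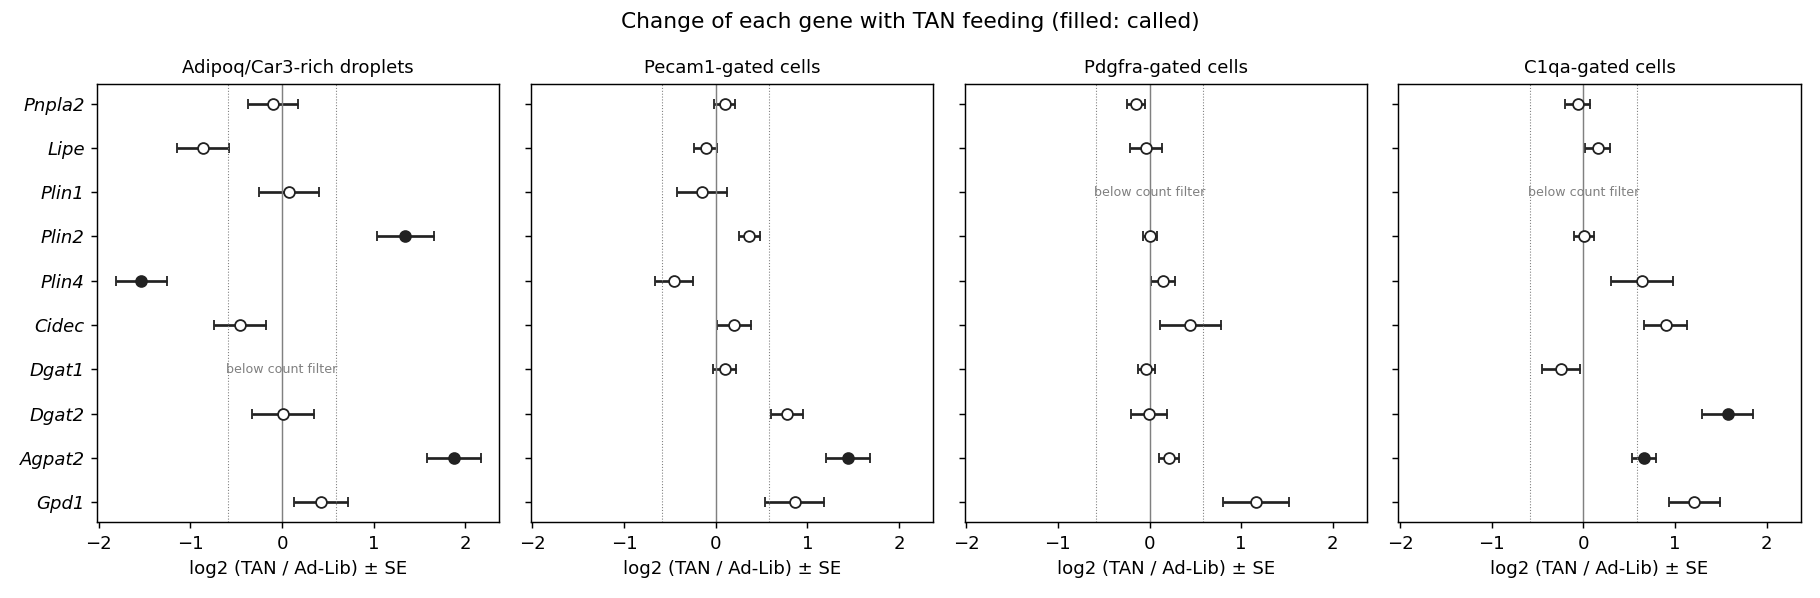
Change of each gene between TAN and Ad-Lib libraries (log2, with its standard error) in the 4 gates, from edgeR's quasi-likelihood test. Filled points were called, open points were not, the dotted lines mark 1.5-fold, and "below count filter" marks a gene not tested. The filled points are Agpat2 in 3 gates, Dgat2 in C1qa-gated cells, and Plin2 and Plin4 in the Adipoq/Car3-rich droplets; there is none in Pdgfra-gated cells.

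In C1qa-gated cells, Dgat2 and Agpat2 were called, both higher in TAN libraries, of 9 members that passed the count filter. Over the 9985 genes tested, 0.130% were called higher and 0.230% lower (13 and 23 genes, which became 21 and 18 without TAN 6). Dgat2 was at 3.31, 2.55, 5.71 and 5.26 CPM in Ad-Lib and at 13.8, 9.21, 8.50 and 16.4 CPM in TAN libraries, without overlap but on only 18, 9, 20 and 18 and 37, 22, 13 and 40 UMIs (log2 change 1.58 ± 0.28 SE, adjusted p = 0.0249). Agpat2 was at 16.8, 13.9, 20.8 and 22.2 against 25.0, 29.3, 29.4 and 31.2 CPM, also without overlap (log2 change 0.66 ± 0.13 SE, adjusted p = 0.0399). Agpat2 lost its call in 11 of 17 alternatives, among them those without Ad-Lib 1, 3 or 7 and without any 1 of the 4 TAN libraries, with adjusted p up to 0.117. Dgat2 lost it in 5 of 16 (without Ad-Lib 1, TAN 2 or TAN 8 in turn, with the gate at 1 C1qa UMI, and in cells with at most 0.1% adipocyte UMIs), with adjusted p up to 0.107. DESeq2 gave Dgat2 no adjusted p and is not among the 16. Dgat2 passed the count filter through the TAN group, with 3 of 4 Ad-Lib libraries above it.

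Adipoq plus Car3 UMIs, most of them Car3, were more frequent in 3 of the 4 TAN libraries of this gate than in any Ad-Lib library, with TAN 6 as the exception. Together they stood at 90.8, 106, 126 and 123 CPM in Ad-Lib and at 154, 216, 109 and 195 CPM in TAN libraries, and Car3 itself missed the threshold (log2 change 0.67 ± 0.16 SE, adjusted p = 0.0716) but was called with DESeq2 (adjusted p = 0.0106), with no filter (adjusted p = 0.00022) and without TAN 6 (adjusted p = 0.00511). Adipoq alone stood at 4.79, 6.24, 9.13 and 6.73 against 9.34, 10.0, 1.96 and 7.80 CPM, with overlapping groups and TAN 6 the lowest of the 8 libraries (log2 change 0.25 ± 0.33 SE, adjusted p = 0.802). Between 2.28% and 5.04% of C1qa-gated cells of an Ad-Lib library had over 0.1% adipocyte UMIs, against 4.53% to 7.35% in TAN libraries. In the 3860 cells at or below 0.1%, Dgat2 (log2 change 1.07, adjusted p = 0.107) and Agpat2 (log2 change 0.50, adjusted p = 0.102) were no longer called, although the groups still did not overlap for either. Per 100 Adipoq plus Car3 UMIs, Dgat2 stood at 3.72 ± 0.943 and 7.36 ± 2.13, and Agpat2 at 16.5 ± 2.42 and 18.2 ± 5.97, in Ad-Lib and TAN libraries, and the groups overlapped for both. The median mitochondrial share was 1.98% to 2.88% in Ad-Lib and 2.55% to 3.55% in TAN libraries, and TAN 6 was shallower than the others (a median of 3961 UMIs per cell against 5472 to 6635). The part of either in these differences was not tested.

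Gpd1 (log2 change 1.21 ± 0.28 SE, adjusted p = 0.0551) and Cidec (log2 change 0.90 ± 0.23 SE, adjusted p = 0.084) missed the threshold in C1qa-gated cells. Gpd1 was called with no filter (adjusted p = 0.0109) and without Ad-Lib 7 (adjusted p = 0.0418), and Cidec with no filter (adjusted p = 0.0123). Like Dgat2, Gpd1 passed the count filter through the TAN group, with 3 of 4 Ad-Lib libraries above it. Gpd1 was at 3.31, 3.41, 3.14 and 6.73 against 8.22, 7.95, 8.50 and 12.7 CPM, without overlap, and Cidec at 8.05 ± 2.19 against 14.6 ± 3.95 CPM. Plin4 (log2 change 0.64 ± 0.34 SE, adjusted p = 0.427), Lipe (log2 change 0.16 ± 0.14 SE, adjusted p = 0.682), Pnpla2 (log2 change -0.06 ± 0.14 SE, adjusted p = 0.895) and Dgat1 (log2 change -0.24 ± 0.21 SE, adjusted p = 0.675) overlapped between the groups. Plin2, with 2524 UMIs, stood at 103 ± 21.8 CPM in the Ad-Lib group and 103 ± 14.6 CPM in the TAN group (log2 change 0.01 ± 0.11 SE, adjusted p = 0.996). Plin1 fell below the count filter here, with 11, 6, 14 and 10 UMIs in Ad-Lib and 8, 8, 4 and 13 in TAN libraries.

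In Pdgfra-gated cells, none of the 9 members that passed the count filter was called by edgeR, against 0.292% of 11975 genes called higher and 0.568% lower. DESeq2 called 0 as well. At an unadjusted p under 0.05 there was 1 of 9, where 14.3% of all genes had one, and it was Gpd1, at 1.06, 0.779, 1.56 and 0.822 CPM in the Ad-Lib group and 2.90, 2.46, 0.808 and 2.98 CPM in the TAN group (log2 change 1.16 ± 0.36 SE, adjusted p = 0.139). Gpd1 was called only without TAN 6 (log2 change 1.37, adjusted p = 0.0414), the 1 TAN library that lay within the Ad-Lib range. Agpat2 ranged over 13.7 to 17.3 CPM in Ad-Lib and 17.4 to 20.7 CPM in TAN libraries, a small difference without overlap (log2 change 0.22 ± 0.11 SE, adjusted p = 0.399). Plin2, with 8710 UMIs, stood at 129 ± 16.0 against 132 ± 9.92 CPM (log2 change 0.01 ± 0.08 SE, adjusted p = 0.992). The log2 changes of Pnpla2, Lipe, Plin4, Cidec, Dgat1 and Dgat2 lay between -0.15 and 0.45. Plin1 fell below the filter. In the other gates, an unadjusted p under 0.05 was found for 4 of 10 members in Pecam1-gated cells (17.3% of all genes). It was found for 4 of 9 in C1qa-gated cells (13.5%) and 4 of 9 in the droplets (16.6%). DESeq2 called 2, 1 and 2 members in these gates, where it called 233 of 11507, 43 of 9985 and 14 of 307 genes.

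Whether a change differed between gates was tested directly, in 1 edgeR fit over the sums of the 4 gates with the library as a block, for 6 pairs of gates, and 4 differences were called among the members. Of 13011 genes tested, 1.26% were called between Pecam1-gated and Pdgfra-gated cells, 0.0769% between the droplets and Pdgfra-gated cells and 0.0154% between the droplets and C1qa-gated cells, while the other three pairs had 0.108% (C1qa-gated against Pdgfra-gated), 0.530% (C1qa-gated against Pecam1-gated) and 0 (the droplets against Pecam1-gated cells, with 723 genes at an unadjusted p under 0.05 and 844 called by limma-voom). The Agpat2 change was larger in Pecam1-gated than in Pdgfra-gated cells (difference of the log2 changes 1.18 ± 0.21 SE, adjusted p = 0.00178) and larger in the Adipoq/Car3-rich droplets than in Pdgfra-gated cells (2.10 ± 0.38 SE, adjusted p = 0.0169). Between the droplets and Pecam1-gated cells it differed by 0.92 ± 0.40 SE, adjusted p = 0.856, which does not pass. The Plin2 change was larger in the droplets than in Pdgfra-gated (1.89 ± 0.28 SE, adjusted p = 0.00346) and C1qa-gated cells (1.93 ± 0.29 SE, adjusted p = 0.00288), and missed the threshold against Pecam1-gated cells (1.57 ± 0.29 SE, adjusted p = 0.0837), where it was called without TAN 8 and by limma-voom. For Dgat2, the difference between C1qa-gated and Pdgfra-gated cells missed it as well (1.54 ± 0.34 SE, adjusted p = 0.0576). The Plin4 change of the droplets was not called different from that of any other gate by edgeR (adjusted p of 0.366 to 0.864), but limma-voom called it lower than in C1qa-gated cells (adjusted p = 0.0378). Limma-voom, which called 393 to 922 genes in the 3 pairs with the droplets, also called the Agpat2 change larger there than in C1qa-gated cells (adjusted p = 0.00122, against 0.184 by edgeR) and that of Dgat1 larger than in Pdgfra-gated, Pecam1-gated and C1qa-gated cells (adjusted p of 0.000828 to 0.014, against 0.593 to 0.845 by edgeR). In edgeR fits, Plin4 in Pecam1-gated against Pdgfra-gated cells was called without TAN 8 (adjusted p = 0.0363), and Cidec in C1qa-gated against Pecam1-gated cells without TAN 2 (adjusted p = 0.02). Without 1 library, the Agpat2 difference between the droplets and Pdgfra-gated cells was lost for Ad-Lib 1, 3, 5 or 7 and TAN 2 or 4 (adjusted p up to 0.186), and that of Plin2 for Ad-Lib 7 and TAN 2 or 4 (adjusted p up to 0.0831). Limma-voom with a random library effect did not call the Agpat2 difference between Pecam1-gated and Pdgfra-gated cells (adjusted p = 0.0724), and the Plin2 difference between the droplets and C1qa-gated cells was lost without TAN 2 (adjusted p = 0.0758).

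**Figure D3:**
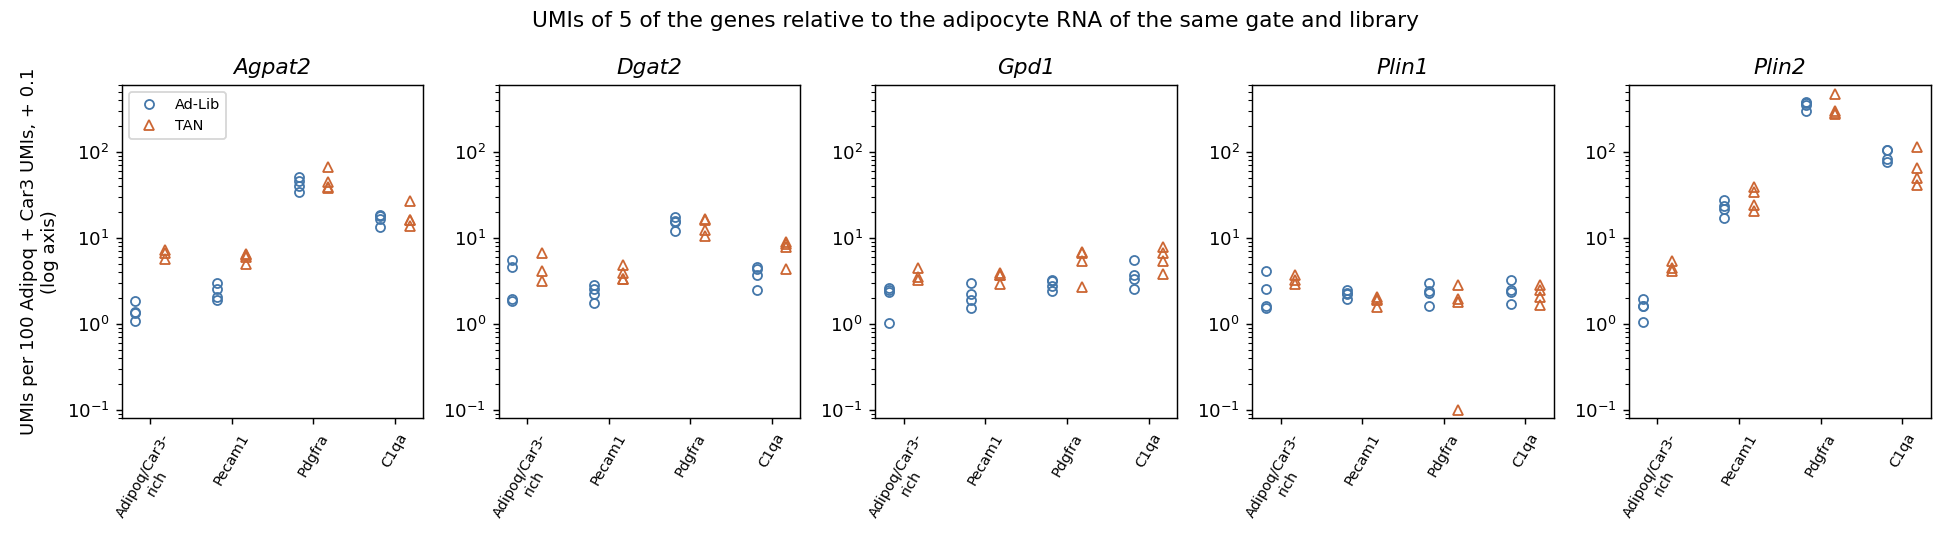
UMIs of 5 of the genes per 100 Adipoq plus Car3 UMIs of the same gate and library, plus 0.1 (log axis). Circles are Ad-Lib and triangles TAN libraries, and TAN 6 is left out of the Adipoq/Car3-rich droplets. The Ad-Lib means of Plin1 lie between 2.15 and 2.37 in the 4 gates, Plin2 lies higher in the other 3 gates than in the droplets, and the Agpat2 triangles lie above all circles in the droplets and in Pecam1-gated cells.

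Around the 10 genes, 45 other genes of the same pathway were followed in 3 lists: lipolysis and its control (17), droplet coat and formation (10) and glycerolipid synthesis (18). In Pdgfra-gated cells 35 of them were tested and 0 were called by edgeR, or DESeq2, with 6 at an unadjusted p under 0.05 (14.3% of all genes had one), and their median log2 change was 0.0259 against 0.00558 over all genes. In C1qa-gated cells 29 were tested and 0 called by edgeR or DESeq2, with 7 at an unadjusted p under 0.05 (13.5% of all genes), and a median of -0.0363 against 0.00281. In the Adipoq/Car3-rich droplets only 8 passed the filter and 0 were called by edgeR or DESeq2, with 1 at an unadjusted p under 0.05 (16.6% of all genes). That 1 was Cavin1, a caveolar coat protein (log2 change -1.20 ± 0.52 SE, adjusted p = 0.221). In Pecam1-gated cells 37 were tested, and edgeR called 1, lower in TAN libraries, where it called 0.660% of all 11507 genes lower. DESeq2, which called 233 of the 11507 genes, called 2 of the 37, the other being Adrb3 (log2 change -1.56, adjusted p = 0.029). Adrb3 passed the filter through the Ad-Lib group, with 2 of 4 TAN libraries above it. There 8 had an unadjusted p under 0.05 (17.3% of all genes), and the median was 0.0822 against -0.00182. The gene called by edgeR was Lpin3, a phosphatidate phosphatase that acts between Agpat2 and the Dgat enzymes, at 9.98, 7.45, 16.0 and 12.4 CPM in the Ad-Lib group and 3.60, 2.05, 3.26 and 5.34 CPM in the TAN group, without overlap (log2 change -1.64 ± 0.29 SE, adjusted p = 0.0265), and it passed the filter through the Ad-Lib group, with 3 of 4 TAN libraries above it. The Lpin3 call was lost in 8 of 17 alternatives, among them those without Ad-Lib 1, 5 or 7 or TAN 2, 4 or 6, with adjusted p up to 0.112. Cav1, the coat protein of caveolae, passed the adjusted p in Pdgfra-gated cells but changed by less than 1.5-fold (log2 change -0.50 ± 0.07 SE, adjusted p = 0.00491). Cav1, Cavin1 and Adrb3 are named after their values were seen.

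The genes most like Plin1 and Plin2 were looked for over the 32 sums of 4 gates by 8 libraries, among 8672 genes of at least 10 CPM on average, as a description of points that share libraries and gates. Closest to Plin1 were Lep (r = 0.989), Pck1, Lgals12, Gpd1 and Nrg4 (r = 0.980), of which Lep encodes leptin and Pck1 the enzyme that feeds glycerol synthesis in fat. Closest to Plin2 were Uqcr11 (r = 0.968), Sdhb, Tmem134, Mdh2 and Mrpl18 (r = 0.957), among them a respiratory chain subunit (Sdhb) and a mitochondrial malate dehydrogenase (Mdh2). The sums of TAN 6 in the droplets, from 2 droplets, are included.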

How the data were processed

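Stromal vascular cells of inguinal fat from 4 Ad-Lib and 4 TAN libraries were measured by droplet 3′ RNA sequencing. The authors deposited filtered matrices of raw UMI counts per gene and barcode, made with Cell Ranger (version 3.0.2 per the labels, whereas the file headers name another release) on mm10/GRCm38. The labels also name Seurat, and no normalized values were used here. Barcodes with 700 to 30000 UMIs, 200 to 8000 genes and at most 10% mitochondrial UMIs were kept, which are the limits of the study. No doublet caller was run: the gates exclude one another's markers, and a limit of 15000 UMIs was tried instead.

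Counts were summed per library and gate and tested with edgeR 4.0.16 in R 4.3.3 (TMM scaling, filterByExpr, quasi-likelihood test, Benjamini-Hochberg adjustment over all genes tested in a gate). DESeq2 1.42.0, limma 3.58.1 (voom), other gates, filters and scalings, and leaving out each library were the alternatives. A library needed 10 cells of a gate. For the Adipoq/Car3-rich droplets this left 2 libraries per group, so the minimum was lowered to 5 droplets after the droplet counts were seen. The scripts were tested on simulated counts. For shares of cells with a UMI, each cell was thinned to 1000 UMIs, and cells below that depth were left out (5 Ad-Lib and 10 TAN Pdgfra-gated, 58 and 57 Pecam1-gated, 84 and 106 C1qa-gated cells). Limits from a count of 0 use 3 counts and cover counting error only. Promoter sequence came from RefSeq (GRCm38.p6).

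The 10 genes, the pathway lists and the tests were chosen with earlier results of these data known. All 10 genes are named in each gate. Of the pathway lists, genes called in a gate are named, at most 4 per direction.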

Additional observations from a re-analysis of the deposited data

Results flagged for a closer look

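In 3 of 70 groups of 4 libraries, 1 library stood apart from the other three by Dixon's criterion, where chance alone marks about 1 group in 20. Dgat2 in Pdgfra-gated cells was at 7.19 CPM in TAN 8, against 5.19 CPM in the nearest TAN library. Gpd1 in C1qa-gated cells was at 6.72 CPM in Ad-Lib 7, against 3.41 CPM in the nearest Ad-Lib library, and at 12.7 CPM in TAN 8, against 8.50 CPM in the nearest TAN library.

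The change with TAN feeding differed between gates in 4 comparisons of the 10 genes (edgeR quasi-likelihood test, Benjamini-Hochberg adjustment). For Agpat2 the log2 change was higher by 1.18 in Pecam1-gated than in Pdgfra-gated cells (adjusted p = 0.00178) and by 2.10 in Adipoq/Car3-rich droplets than in Pdgfra-gated cells (adjusted p = 0.0169). For Plin2 it was higher in the droplets by 1.89 than in Pdgfra-gated cells (adjusted p = 0.00346) and by 1.93 than in C1qa-gated cells (adjusted p = 0.00288). Over the 13011 genes tested, 1.26% were called between Pecam1-gated and Pdgfra-gated cells, 0.0769% between the droplets and Pdgfra-gated cells and 0.0154% between the droplets and C1qa-gated cells. Of 9 alternatives each, the call for Agpat2 was lost in 1 for Pecam1-gated cells (limma-voom) and in 6 for the droplets (without any 1 of the 4 Ad-Lib libraries, without TAN 2 and without TAN 4), and the call for Plin2 in the droplets was lost in 3 against Pdgfra-gated cells (without Ad-Lib 7, TAN 2 or TAN 4) and in 1 against C1qa-gated cells (without TAN 2).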

How the results depend on the processing

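No paired analysis was run, because the labels state no pairing of Ad-Lib libraries (odd replicate numbers) with TAN libraries (even replicate numbers). Over the named genes, 1258 of 1324 alternative values kept their direction or their side of the threshold, 45 lost a call, 21 gained one and 0 changed sign while called, whereas 80 values called in neither fit took the other sign. These include the alternative with no minimum change, which reuses the main fit and so could not lose a call. The number of genes called in Pdgfra-gated cells (103) became 190 with no minimum change, 65 without TMM scaling and 175 with no filter on low counts. In Pecam1-gated cells (105) it became 233 with DESeq2, 17 with the gate at 1 UMI and 36 in cells with at most 0.1% adipocyte UMIs. In C1qa-gated cells (36) it became 23 without TMM scaling, 174 with no filter and 12 with the gate at 1 UMI. In the Adipoq/Car3-rich droplets (26, of which 8 higher and 18 lower) it became 14 with DESeq2 and 12 with no filter, all 12 higher. Limma-voom gave 32 differences between Pecam1-gated and Pdgfra-gated cells in place of 164, and 393, 844 and 922 between the droplets and Pdgfra-gated, Pecam1-gated and C1qa-gated cells in place of 10, 0 and 2. The cause was not tested. Leaving out 1 library at a time gave 31 to 135 genes in Pdgfra-gated cells, 25 to 378 in Pecam1-gated, 14 to 46 in C1qa-gated cells and 5 to 28 in the droplets. For differences between gates the ranges were 74 to 243 (Pecam1 against Pdgfra), 4 to 17 (C1qa against Pdgfra), 0 to 24 (droplets against Pdgfra), 1 to 340 (C1qa against Pecam1), 0 to 4 (droplets against Pecam1) and 0 to 9 (droplets against C1qa). The difference in the share of the droplets ran from -0.0328 to 0.104 percentage points. In the droplets, 43 Ad-Lib and 51 TAN barcodes and 2255 to 46049 UMIs per library limit what can be detected.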

Other observations

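Adrb3, the beta-3 adrenergic receptor that starts lipolysis in fat cells, was too sparse in the Adipoq/Car3-rich droplets to pass the count filter, and is described after its values were seen. It had 6, 5, 9 and 6 UMIs in Ad-Lib and 1, 2 and 0 UMIs in TAN libraries there, or 433, 471, 397 and 265 against 21.7, 46.7 and 0 CPM. The 0 UMIs of TAN 8 allow up to 247.5 CPM by 3 counts, close to the lowest Ad-Lib library, and with no filter on low counts edgeR did not call the difference (log2 change -3.11, adjusted p = 0.10). In Pecam1-gated cells it stood at 6.10 ± 1.53 against 1.94 ± 1.05 CPM, without overlap (log2 change -1.54 ± 0.40 SE, adjusted p = 0.0981, edgeR quasi-likelihood test), where DESeq2 called it (log2 change -1.56, adjusted p = 0.029). Adrb3 passed the count filter of that gate through the Ad-Lib group, with 2 of 4 TAN libraries above it.

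Agpat2 in T-gated cells lay the other way from the other gates, on 99 UMIs in all. It was at 25.6, 20.7, 30.1 and 38.7 CPM in Ad-Lib and at 8.73, 8.29, 9.29 and 5.02 CPM in TAN libraries, without overlap, in a background gate for which no test was run. The gate held 32 to 125 cells per Ad-Lib and 72 to 457 per TAN library, on average 1.41% and 4.74% of kept barcodes. Whether the mix of T-gated cells differed was not tested, and the gene is described after its values were seen.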
